A study of Rattus norvegicus with 6 samples.

Results

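The expressed long noncoding RNA genes of cultured rat oligodendrocyte precursor cells (OPCs) were taken from the deposited count table by 2 criteria. A gene had to carry the biotype lincRNA, antisense or processed_transcript, and it had to reach at least 10 raw counts in at least 3 of the 6 libraries. The rule also leaves out Meg3, which took away no row that met both criteria, and no row carried the biotype lncRNA. Of 3230 rows of these biotypes among the 32883 rows of the table, 280 were expressed in this sense, whereas 1978 had no count in any library. The 280 genes were 212 lincRNA, 50 processed_transcript and 18 antisense genes. Counts of both groups chose the genes, so a low level in the excluded rows is a property of the rule. At the edge, the 26 rows with exactly 3 libraries at 10 counts had totals over the 6 libraries between 40 and 359 (median 58.5), and the 43 rows with 2 such libraries, just outside, had totals between 28 and 181 (median 48).

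Long noncoding RNAs are transcripts without a long open reading frame, set apart by their length from microRNAs and other small RNAs. Most are transcribed by RNA polymerase II, capped and polyadenylated, and many are kept in the nucleus. Some act on chromatin or on splicing, some host microRNAs or small nucleolar RNAs in their introns, and some start beside a protein-coding gene on the opposite strand and share its promoter region. In the oligodendrocyte lineage, OPCs divide and then exit the cell cycle to become myelinating oligodendrocytes, and the levels of several noncoding RNAs change along that path.

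The cells came from the cerebral cortices of newborn (postnatal day 0) Sprague Dawley rats. The Methods describe a culture as made from 2 rats at postnatal day 0 to 2. The cells were grown for 7 days with fetal bovine serum. OPCs were shaken off the mixed culture and then kept in Neurobasal with B27 and N2. One group received 5 µM ZJU-37, a RIPK1 kinase inhibitor derived from necrostatin-1s, and the other received an equal volume of its solvent DMSO, with 3 libraries in each group. By the labels the treatment lasted 36 h, and the Methods give a shorter time. The Methods call the libraries biological repeats, whereas the legend of the paper's RNA-seq figure gives n = 3 plate wells. The labels do not say whether the libraries came from separate cultures, so p-values may measure technical spread only. RNA was selected by its poly-A tail, and the sources do not say that the kit marked strand, so reads from overlapping genes could not be told apart and transcripts without a poly-A tail were not measured.

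Library totals ran from 13935865 to 24097927 counts, and levels within a gene are given below as CPM, its count relative to the TMM-scaled library total. In these libraries 3 counts equal 0.124 to 0.215 CPM, a floor for counting error only. Of the OPC markers, 7 of 8 were found, with a summed level of 3857 to 4476 CPM in the DMSO libraries and 4411 to 6075 CPM in the ZJU-37 libraries. Of these 7, edgeR called 4 higher with ZJU-37, among them Pdgfra (log2 fold change 1.10) and Cspg4 (1.04), and 2 lower, Gpr17 (-3.43) and Sox10 (-0.61). The calls of Gpr17 and Cspg4 passed without each library in turn, and the others did not. The cultures held RNA of other types. The 8 mature oligodendrocyte markers summed to 11087 to 22050 CPM with DMSO and 4666 to 9761 CPM with ZJU-37, and the 8 microglia markers to 1353 to 2225 CPM and 982 to 2075 CPM. The 8 astrocyte markers summed to 1026 to 1655 CPM and 904 to 1358 CPM, and the 8 neuron markers to at most 389 CPM. Endothelial markers (5 of 6 found, of which 1 was at 0 in all libraries) and fibroblast and mural markers (6) stayed at or under 18.7 and 105.8 CPM. In such bulk samples, fewer cells of a type and less RNA per cell cannot be told apart.

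The biotype did not hold for every gene. When the 280 genes were matched to the RefSeq gene table of assembly GRCr8 by NCBI gene ID, symbol or synonym, 39 matched a protein-coding gene, 9 matched a long noncoding RNA gene, 1 matched a transcribed pseudogene and 231 had no match. Most of the coding matches, 35 of 39, were processed_transcript genes, a biotype that here included Snx3 (a sorting nexin of endosomes), Top2b (DNA topoisomerase II beta) and AABR07068161.1 (Dock10, a guanine nucleotide exchange factor). These 39 genes are therefore called coding-match genes below. The 39 had a median level of 4.29 FPKM and a median length of 4757 bases, and the genes without a match had 1.44 FPKM and 1129 bases.

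Level was compared between genes per length, as FPKM. The 280 genes had a median of 1.77 FPKM over the 6 libraries, against 11.8 FPKM for the 13980 protein_coding rows that met the same count limit, and their median length was 1466 bases against 2401. They ran from 0.0849 to 160.7 FPKM, with 180 genes at 1 FPKM or more and 37 at 10 FPKM or more. Together they took 0.331% ± 0.0119 (SD, n = 3) of all counts with DMSO and 0.340% ± 0.0204 (SD, n = 3) with ZJU-37. The groups overlapped, and the difference of 0.0090 percentage points had p = 0.6 in a two-sided exact permutation test, whose smallest possible p in this design is 0.1. Of all counts, the coding-match genes took 0.183% with DMSO and 0.190% with ZJU-37. The other genes took 0.148% and 0.150%.

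**Figure D1:**
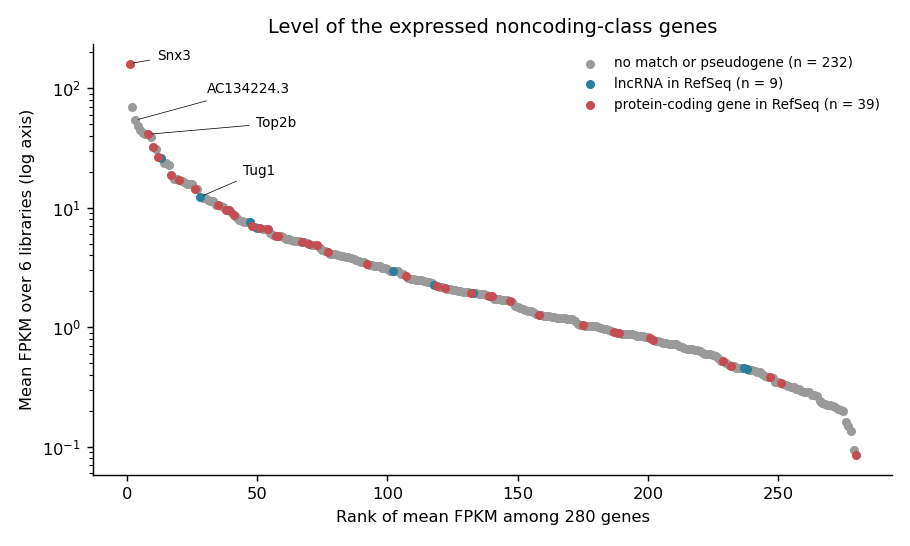
Mean FPKM over the 6 libraries (log axis) of each of the 280 genes against its rank, coloured by what the gene matched in RefSeq. The levels span 0.0849 to 160.7 FPKM, Snx3 stands at the top, and coding-match genes lie along the whole range.

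The comparison of ZJU-37 with DMSO asks which transcripts changed when RIPK1 kinase activity was inhibited in OPCs. Of the 280 genes, 261 had enough counts to be tested. With ZJU-37, 20 of them rose and 10 fell (edgeR, adjusted p under 0.05 over all 14670 tested genes). The background was 9.43% of all tested genes higher and 5.58% lower, so the 7.66% and 3.83% of these genes were not above it. Their median log2 fold change was -0.0044, beside -0.03 over all tested genes. When replicate number was added to the fit as a block, 32 rose and 26 fell, where the background was 16.2% higher and 15.9% lower, and all 20 and all 10 were among them.

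**Figure D2:**
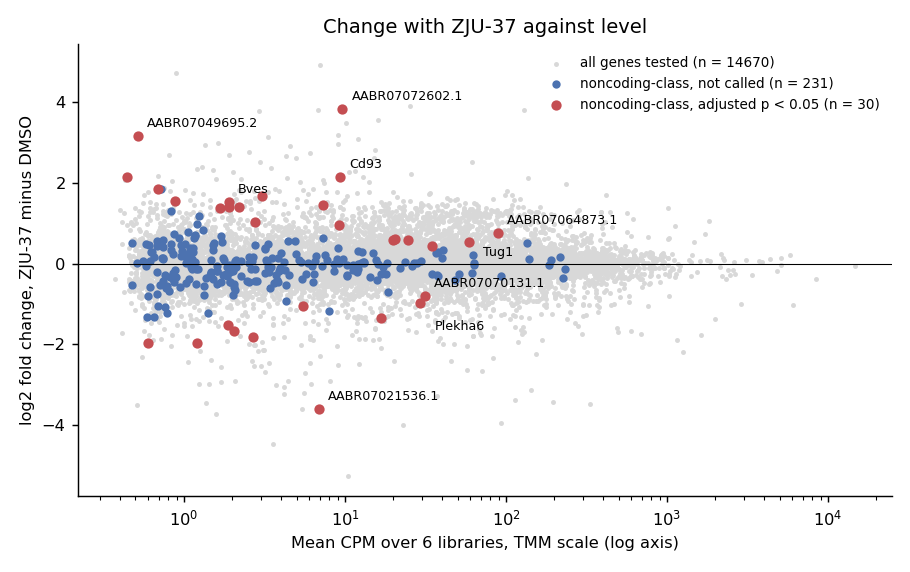
Log2 fold change, ZJU-37 minus DMSO, against the mean CPM over the 6 libraries (log axis), with the 261 tested noncoding-class genes over all 14670 tested genes in grey. The 30 genes with an adjusted p under 0.05 in the edgeR test are red, led by AABR07072602.1 at 3.83 and AABR07021536.1 at -3.61.

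The rule itself weighed on some calls. Among the 280, 9 genes reached 10 counts in 1 group only, 8 of them with ZJU-37. The 4 of these 8 that were tested were all higher, which their choice favoured, and the 1 gene that reached the limit with DMSO only was lower. Without these 9 genes, 16 of 256 rose and 9 fell. Of the coding-match genes 7 rose and 2 fell, which is 17.9% and 5.13% of the 39. Of the 212 tested genes with no RefSeq match 13 rose and 8 fell, which is 6.13% and 3.77%, where 9.43% and 5.58% of all tested genes were called. The difference between these sets was not tested.

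The 9 most abundant genes were Snx3 (160.7 FPKM), AABR07002969.1 (70.0), AC134224.3 (53.8), AABR07070131.1 (48.2), AABR07008309.1 (44.7), AABR07061839.1 (42.1), AABR07019209.1 (41.4), Top2b (41.1) and AC134224.1 (39.3 FPKM). Of these, 2 were coding-match genes and the other 7 had no RefSeq match. AABR07061839.1 and AABR07070131.1 fell with ZJU-37 and are described below, and the other 7 were not called.

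Tug1, a conserved lincRNA with nuclear and cytoplasmic roles, was the only member found from 6 lists of known noncoding RNA genes with 109 distinct symbols, of which 3 were in the table at all. It is on chromosome 14 at 83878295 to 83887584, minus strand, in the table's coordinates, whose genome build the sources do not name. Its level was 66.3, 61.3 and 65.5 CPM in DMSO replicates 1 to 3 and 63.1, 60.5 and 64.1 CPM in the ZJU-37 replicates. The groups overlapped almost entirely. The log2 fold change of ZJU-37 against DMSO was -0.04 (SE 0.06, edgeR adjusted p = 0.72), and it stayed between -0.07 and 0.01 when any 1 library was left out. The RefSeq promoter of Tug1 (GRCr8, chr14:82750485-82750784, minus strand, 250 bases before to 50 after the start) is shown because Tug1 is the 1 gene here from those lists. Capitals mark a CCAAT box (CCAAT) and the cell cycle homology region word TTTGAA, on either strand.

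Tug1: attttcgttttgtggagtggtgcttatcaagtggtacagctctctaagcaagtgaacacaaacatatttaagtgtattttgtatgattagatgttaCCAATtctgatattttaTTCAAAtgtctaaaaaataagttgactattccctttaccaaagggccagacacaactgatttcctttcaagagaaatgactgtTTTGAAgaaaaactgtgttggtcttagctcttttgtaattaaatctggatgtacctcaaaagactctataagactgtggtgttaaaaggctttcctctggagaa

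Such short words are frequent. CCAAT stood on either strand in 37.5% of 33469 RefSeq rat promoters of this length and TTTGAA in 18.3%, so a match describes the sequence and is not a binding site. Kantr, another noncoding gene known to RefSeq and chosen after its values were seen, lies between Kdm5c and Tspyl2 on chromosome X and had 2.25 ± 0.148 CPM (SD, n = 3) with DMSO and 1.64 ± 0.499 CPM with ZJU-37 (log2 fold change -0.46, SE 0.28, edgeR adjusted p = 0.346). Of the 9 genes that RefSeq also holds as long noncoding RNA, 0 passed the edgeR test, and 1 had an unadjusted p under 0.05. With 9.43% of all tested genes called higher and 5.58% lower, a count of 0 among 9 allows no reading. DESeq2 and limma also called 0, whereas with the block 1 was higher and 1 lower. Their unblocked log2 fold changes ran from -0.46 to 0.56.

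The 3 abundant lincRNA genes AC134224.1, AC134224.2 and AC134224.3 stand in a row on the minus strand of chromosome 1, between 221151827 and 221158792 and overlap no protein_coding row. RefSeq held no match for them, and no identity is assigned here. AC134224.1 had 117, 98.0 and 92.4 CPM with DMSO and 84.2, 86.5 and 78.9 CPM with ZJU-37. AC134224.3 had 47.3, 42.3 and 35.0 CPM and then 37.4, 34.1 and 29.7 CPM. Only in AC134224.1 did the groups not overlap. Their log2 fold changes were -0.30 (SE 0.10, edgeR adjusted p = 0.0921) and -0.30 (SE 0.13, adjusted p = 0.204), and with the block their adjusted p fell to 0.00826 and 0.00607. The shorter AC134224.2 had a log2 fold change of -0.27 (adjusted p = 0.393, with the block 0.113).

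The largest increase was in AABR07072602.1 (ENSRNOG00000052190), a lincRNA gene on chromosome 18 at 53216095 to 53272041, minus strand, in an interval without a protein_coding row. It had 18, 26 and 19 counts in the DMSO libraries and 343, 386 and 406 in the ZJU-37 libraries, or 1.26 ± 0.234 CPM against 18.0 ± 1.07 CPM (SD, n = 3). The lowest ZJU-37 library was far above the highest DMSO library. Groups apart were part of the rule that named the largest changes, here and below. The log2 fold change was 3.83 (SE 0.17, edgeR adjusted p = 1.32e-04), and it stayed between 3.68 and 3.96 without any 1 library. The nearest coding gene is Fbn2, the microfibril protein fibrillin 2, 34592 bases away on the same strand. Fbn2 went from 17.4 ± 1.85 to 241.4 ± 11.5 CPM (SD, n = 3), a log2 fold change of 3.79 (SE 0.10, adjusted p = 4.49e-05). On the other side Slc27a6, a fatty acid transporter 337173 bases away, had a log2 fold change of 0.78 (SE 0.34, adjusted p = 0.183).

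Other increases stood beside Nrm, Mdc1, Ankle1 and Exo1. AABR07044366.1 on chromosome 20 (3403204 to 3403731, minus strand) lies between Nrm, which encodes the inner nuclear membrane protein nurim, and Mdc1, a mediator of the DNA damage checkpoint, 1889 and 980 bases from them and on their strand. Its level was 6.87, 6.61 and 5.47 CPM with DMSO and 12.9, 10.9 and 12.7 CPM with ZJU-37. The groups lay clearly apart, with a log2 fold change of 0.94 (SE 0.14, edgeR adjusted p = 0.00623). Nrm rose by 1.02 (SE 0.11, adjusted p = 0.0017) and Mdc1 by 0.96 (SE 0.09, adjusted p = 7.49e-04) on the same scale. With genes this close on 1 strand, reads that run past a gene's annotated end could be counted in the next, and this was not tested.

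AC130741.1 on chromosome 16 (19806544 to 19807258, minus strand) ends towards Ankle1, an endonuclease gene, 2748 bases away. It had 1.39, 1.86 and 1.06 CPM with DMSO and 6.33, 3.35 and 4.22 CPM with ZJU-37. The lowest treated library was above the highest control library, and the log2 fold change was 1.68 (SE 0.33, edgeR adjusted p = 0.0169). Ankle1 changed by 1.38 (SE 0.14, adjusted p = 0.00111). The call for AC130741.1 was lost without DMSO replicate 1 (adjusted p = 0.0596) or 3 (adjusted p = 0.0617).

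AABR07021823.2 on chromosome 13 (93936184 to 93937120, minus strand) starts 1902 bases from the start of Exo1, an exonuclease of mismatch repair and DNA end resection, and runs away from it. Its counts were 7, 7 and 8 with DMSO and 33, 20 and 28 with ZJU-37, with no overlap. The log2 fold change was 1.54 (SE 0.35, edgeR adjusted p = 0.029), and leaving out DMSO replicate 1, 2 or 3 or ZJU-37 replicate 1 or 3 gave adjusted p-values between 0.0648 and 0.109. It is 1 of the genes that reached 10 counts with ZJU-37 only, and it averaged too low for the naming rule, so it was named after its values were seen. Exo1 rose from 7.43 ± 0.375 to 19.02 ± 2.36 CPM (SD, n = 3), a log2 fold change of 1.35 (SE 0.13, adjusted p = 8.66e-04). The RefSeq promoter of Exo1 (GRCr8, chr13:90341768-90342067, plus strand) is the coding side of this divergent pair. Capitals mark CCAAT boxes, which lie on the other strand and read ATTGG here.

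Exo1: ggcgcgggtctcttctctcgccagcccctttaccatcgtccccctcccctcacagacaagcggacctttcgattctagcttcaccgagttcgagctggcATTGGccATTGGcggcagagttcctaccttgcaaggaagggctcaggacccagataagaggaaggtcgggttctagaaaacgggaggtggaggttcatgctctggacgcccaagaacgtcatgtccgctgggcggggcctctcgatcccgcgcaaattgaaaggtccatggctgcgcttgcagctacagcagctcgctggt

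Both other divergent genes that rose lay beside Pcdh10 and Foxd2. AABR07010468.1 on chromosome 2 (136903813 to 136992193, minus strand) starts 1015 bases from Pcdh10, a protocadherin of neural cells. It had 1.83, 2.15 and 1.54 CPM with DMSO and 4.27, 3.30 and 3.60 CPM with ZJU-37, all above, and a log2 fold change of 1.02 (SE 0.22, edgeR adjusted p = 0.0238). Pcdh10 itself had 58.6 ± 14.02 and 77.7 ± 19.8 CPM (SD, n = 3) and a log2 fold change of 0.41 (SE 0.23, adjusted p = 0.314, with the block 5.90e-04). The call for AABR07010468.1 was lost without DMSO replicate 1 or 3 or ZJU-37 replicate 1 or 3 (adjusted p 0.0615 to 0.0802).

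AABR07049695.2 and AABR07049695.3 lie between the forkhead genes Foxd2 and Foxe3 on chromosome 5, from 133710150 to 133711520 and from 133717759 to 133721348, both on the plus strand. Both were too low for the naming rule and were chosen after their values were seen. Both also reached 10 counts with ZJU-37 only, so that their choice as members favoured this direction. AABR07049695.2 had 1, 1 and 3 counts with DMSO and 17, 20 and 22 with ZJU-37, and AABR07049695.3 had 2, 3 and 3 and then 11, 19 and 16. Neither pair of groups overlapped. From the summed counts the ratio of ZJU-37 to DMSO was 9.36 (95% exact interval 3.79 to 29.9, counting error only) for the first and 4.56 (2.13 to 11.2) for the second, with edgeR adjusted p of 0.00386 and 0.0133. The second call was lost without DMSO replicate 2 (adjusted p = 0.0578) or 3 (0.0544). Foxd2, whose start lies 438 bases from that of AABR07049695.2, had 0, 5 and 1 counts with DMSO and 6, 7 and 6 with ZJU-37, too few to test, and Foxe3 had no count in any library. The Foxd2 promoter (GRCr8, chr5:133667434-133667733, minus strand) is printed as the shortest divergent interval among the genes that rose, with its CCAAT box in capitals.

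Foxd2: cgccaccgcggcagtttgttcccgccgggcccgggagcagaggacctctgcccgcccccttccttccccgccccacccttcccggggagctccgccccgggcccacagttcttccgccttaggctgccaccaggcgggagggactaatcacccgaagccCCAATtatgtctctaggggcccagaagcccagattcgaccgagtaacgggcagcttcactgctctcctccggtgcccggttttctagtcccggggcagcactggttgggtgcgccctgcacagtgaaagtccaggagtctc

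Further intergenic lincRNA genes rose farther from coding genes. AABR07016572.1, 96051 bases from the amino acid transporter gene Slc1a4 on chromosome 14, went from 2.34, 4.29 and 5.04 to 8.60, 11.8 and 11.7 CPM. The groups did not overlap, and the log2 fold change was 1.45 (SE 0.29, edgeR adjusted p = 0.018), lost without DMSO replicate 2 or ZJU-37 replicate 2 or 3 (adjusted p 0.0567 to 0.0671). AABR07007055.1 on chromosome 1, between Trub1 and Atrnl1, went from 1.21 ± 0.0756 to 3.21 ± 0.371 CPM (SD, n = 3), a log2 fold change of 1.40 (SE 0.21, adjusted p = 0.00519) that passed without any 1 library. AABR07051177.1, which lies at 8611 to 10251 near the start of chromosome 3 in the table, went from 1.04 ± 0.308 to 2.74 ± 0.158 CPM (SD, n = 3), a log2 fold change of 1.40 (SE 0.26, adjusted p = 0.0139).

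AABR07051177.1 lost its call without DMSO replicate 2 or 3 (edgeR adjusted p = 0.0534 and 0.0592). AABR07067469.1 on chromosome 9 went from 0.922 ± 0.236 to 2.41 ± 0.590 CPM (SD, n = 3), with a log2 fold change of 1.37 (SE 0.30, adjusted p = 0.0264). It passed without DMSO replicate 2 or ZJU-37 replicate 1 and did not pass without any of the other 4 libraries (adjusted p 0.0755 to 0.0943). AC108574.1 on chromosome 11 was closer to a coding gene, 2683 bases upstream of Abhd10, a mitochondrial hydrolase gene. It had 3, 7 and 5 counts with DMSO and 23, 17 and 29 with ZJU-37 (log2 fold change 1.85, SE 0.36, adjusted p = 0.0165), and its call was lost without DMSO replicate 1 or 3 or ZJU-37 replicate 3 (adjusted p 0.0585 to 0.0694). It too reached 10 counts with ZJU-37 only and was named after its values were seen. Abhd10 counts were erratic, at 2, 50 and 7 and then 56, 92 and 18 (adjusted p = 0.492).

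**Figure D3:**
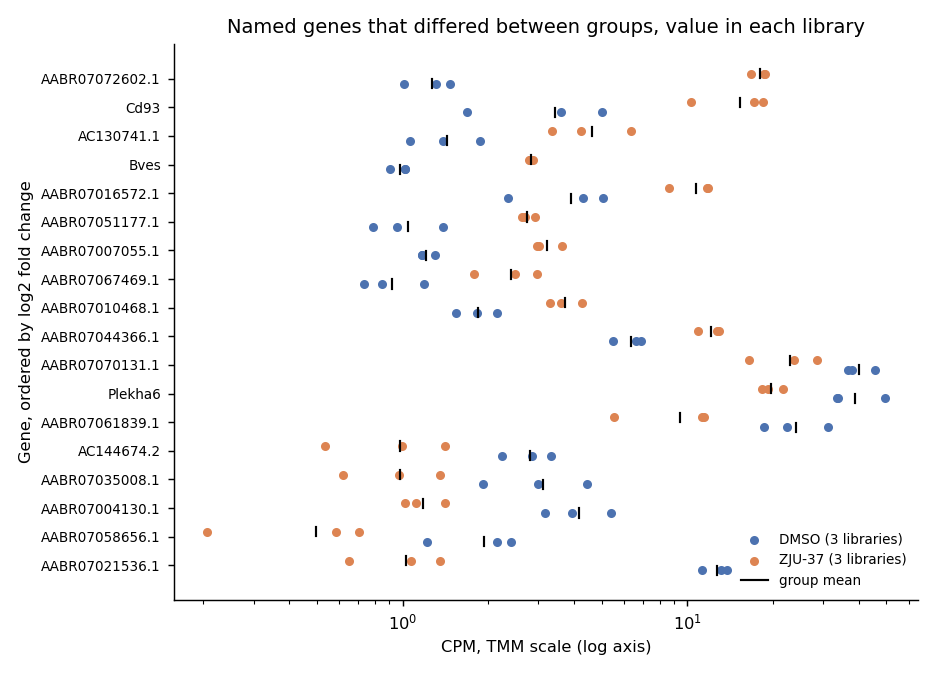
CPM in each of the 6 libraries (log axis) for 18 of the genes that the naming rule took from those with an adjusted p under 0.05, with DMSO in blue, ZJU-37 in orange and a bar at each group mean. The rule took only genes whose groups do not overlap, so this separation was part of their choice, and the levels run from AABR07072602.1 (1.26 against 18.0 CPM) to AABR07021536.1 (12.7 against 1.03 CPM).

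Among the coding-match genes, the 7 increases were Cep128, AABR07064873.1, Rfwd3, Eef1aknmt, AABR07037410.1, Bves and Cd93. Cep128, a protein of the mother centriole, went from 18.4, 19.7 and 21.2 to 30.9, 28.3 and 29.2 CPM (log2 fold change 0.57, SE 0.09, edgeR adjusted p = 0.00551). AABR07064873.1, Syne2 in RefSeq, encodes a giant nesprin that links the nucleus to the cytoskeleton, and it went from 66.8, 66.0 and 65.4 to 129, 97.5 and 110 CPM (0.76, SE 0.11, adjusted p = 0.004). Rfwd3, a ubiquitin ligase of DNA crosslink repair that the table types as lincRNA, went from 16.2 ± 0.299 to 24.6 ± 2.43 CPM (SD, n = 3), a log2 fold change of 0.61 (SE 0.10, adjusted p = 0.00822). All 3 genes showed separate groups, and their calls held without any 1 library.

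Eef1aknmt, Mettl13 in RefSeq, methylates the translation elongation factor eEF1A and went from 29.7 ± 2.25 to 40.2 ± 3.22 CPM (SD, n = 3), a log2 fold change of 0.44 (SE 0.09, edgeR adjusted p = 0.0209), lost without DMSO replicate 2 (adjusted p = 0.0754) or 3 (0.064). AABR07037410.1 is Fgd1 in RefSeq, an exchange factor for the GTPase Cdc42. It went from 15.8 ± 2.55 to 23.8 ± 1.31 CPM (0.59, SE 0.13, adjusted p = 0.0252), lost without DMSO replicate 2 or 3 or ZJU-37 replicate 3 (adjusted p 0.0743 to 0.0883). AABR07035338.1, a processed_transcript gene between Wasf3 and Rnf6 without a RefSeq match, went from 48.1 ± 1.78 to 70.0 ± 6.21 CPM (SD, n = 3; 0.54, SE 0.08, adjusted p = 0.0054) and kept its call without any 1 library. All 6 of these modest changes were between 0.44 and 0.76 on the log2 scale. They fall outside the naming rule, which took the largest changes, and were named after their values were seen.

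Bves, a membrane protein with a cAMP-binding Popeye domain, showed little spread within its groups. It had 1.02, 1.02 and 0.903 CPM with DMSO and 2.81, 2.86 and 2.77 CPM with ZJU-37. The log2 fold change was 1.52 (SE 0.20, edgeR adjusted p = 0.00342), between 1.46 and 1.55 without any 1 library. Cd93, a lectin-like receptor known from endothelial and myeloid cells, had 1.68, 5.03 and 3.61 CPM with DMSO and 10.3, 18.5 and 17.1 CPM with ZJU-37, a log2 fold change of 2.13 (SE 0.40, adjusted p = 0.0162). The call for Cd93 was lost without DMSO replicate 3 or ZJU-37 replicate 2 or 3 (adjusted p 0.0518 to 0.0606). With the block its adjusted p was 6.17e-06.

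Cd93 followed the library order of the microglia markers within each group, but not between the groups. The 8 microglia markers summed to 1353, 2225 and 1928 CPM with DMSO and 982, 2075 and 1678 CPM with ZJU-37, and edgeR, DESeq2 and limma called 0 of the 8, with 0 at an unadjusted p under 0.05 in edgeR, whereas with the block 1 was lower. The endothelial markers summed to 15.9, 16.9 and 18.7 CPM with DMSO and 11.2, 14.1 and 14.9 CPM with ZJU-37. The unmatched lincRNA gene AABR07035722.1, chosen after its values were seen, had 17.7, 30.7 and 35.0 CPM and then 8.11, 41.6 and 34.5 CPM (log2 fold change 0.01, SE 0.56, adjusted p = 0.993). In both genes and in the microglia and endothelial marker sums, replicate 1 was the lowest of its group. Of the single microglia markers, Cx3cr1 broke this pattern with ZJU-37 (11.35, 11.40 and 10.95 CPM). The part of other cell types in these values was not tested.

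**Figure D4:**
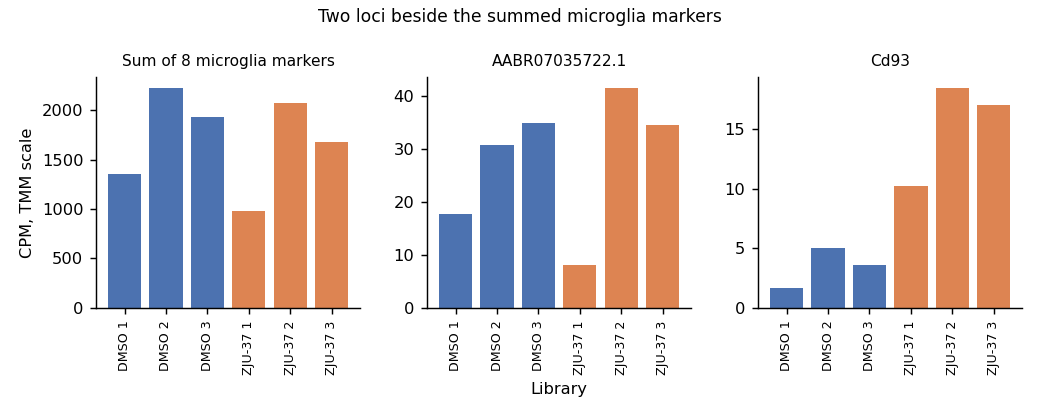
CPM in each library for the sum of the 8 microglia markers and for AABR07035722.1 and Cd93, with DMSO in blue and ZJU-37 in orange and an axis from 0 in each panel. Replicate 1 is lowest in both groups in all 3 panels, and only in Cd93 do the ZJU-37 libraries (10.3 to 18.5 CPM) all stand above the DMSO libraries (1.68 to 5.03 CPM).

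The largest decrease was in AABR07021536.1 (ENSRNOG00000051261), a lincRNA gene on chromosome 13 at 77264239 to 77485250, plus strand. Its span runs into Tnr by 138 bases on the same strand. Tnr encodes tenascin-R, a matrix glycoprotein made by cells of the oligodendrocyte lineage. The gene had 188, 232 and 212 counts with DMSO and 12, 28 and 26 with ZJU-37, or 12.7 ± 1.29 CPM against 1.03 ± 0.357 CPM (SD, n = 3). The groups were far apart, and the log2 fold change was -3.61 (SE 0.26, edgeR adjusted p = 4.30e-04), between -3.82 and -3.36 without any 1 library. Tnr fell from 610.9 ± 95.5 to 54.6 ± 5.16 CPM, by 3.48 on the log2 scale (SE 0.14, adjusted p = 1.32e-04). Reads in the shared bases cannot be assigned to one of the genes, and how many there were was not tested.

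More of the decreases lay beside or inside coding genes that fell as well. AABR07061839.1, an abundant antisense gene on chromosome 4 (148390273 to 148391617, minus strand), lies wholly within the span of March8, a membrane-bound ubiquitin ligase, on the other strand. It had 31.0, 22.3 and 18.5 CPM with DMSO and 11.2, 11.4 and 5.54 CPM with ZJU-37. The groups did not overlap, and the log2 fold change was -1.35 (SE 0.32, edgeR adjusted p = 0.0378). March8 fell by 1.08 (SE 0.18, adjusted p = 0.0104). The call for AABR07061839.1 was lost on leaving out any 1 library other than ZJU-37 replicate 3 (adjusted p 0.0546 to 0.104), and without a filter on low counts (0.0632).

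AC144674.2, antisense and wholly inside Dnm3 on chromosome 13 (79912954 to 79941171, plus strand), had 39, 59 and 42 counts with DMSO and 26, 11 and 24 with ZJU-37. The log2 fold change was -1.52 (SE 0.37, edgeR adjusted p = 0.0372), and the call was lost without any 1 library other than ZJU-37 replicate 1 (adjusted p 0.0645 to 0.124). Dnm3, a dynamin GTPase of membrane fission, fell by 1.24 (SE 0.20, adjusted p = 0.00892). Since strand was not stated to be kept, neither antisense value can be told apart from that of the gene it lies in.

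AABR07070131.1 on chromosome 8 (53831526 to 53838620, plus strand) ends 478 bases from the end of Ncam1, the neural cell adhesion molecule, on the facing strand. It was the fourth most abundant gene and had 45.6, 36.7 and 37.7 CPM with DMSO and 28.5, 16.4 and 23.7 CPM with ZJU-37. All treated libraries were below all controls, and the log2 fold change was -0.81 (SE 0.20, edgeR adjusted p = 0.0441). The call was lost without any 1 DMSO library or ZJU-37 replicate 3 (adjusted p 0.0965 to 0.131), with library totals in place of TMM (0.062) and without a filter (0.0569). Ncam1 went from 404.8 ± 38.0 to 198.7 ± 27.9 CPM (SD, n = 3), a log2 fold change of -1.03 (SE 0.12, adjusted p = 0.00213).

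AABR07058656.1 on chromosome 7 lies 3532 bases upstream of the kinase gene Pim3 and had 33, 38 and 23 counts and then 13, 12 and 5 (log2 fold change -1.96, SE 0.48, adjusted p = 0.0385). It lost its call without DMSO replicate 1 or 2 or ZJU-37 replicate 2 or 3 (adjusted p 0.0841 to 0.121). Pim3 fell by 1.28 (SE 0.12, adjusted p = 8.40e-04).

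Of the intergenic decreases, AABR07004130.1 on chromosome 1, between Tjp1 and Tarsl2, went from 5.41, 3.16 and 3.93 to 1.41, 1.02 and 1.12 CPM. The groups were apart by more than their spread, and the log2 fold change of -1.81 (SE 0.28, edgeR adjusted p = 0.00623) held without any 1 library. AABR07035008.1 on chromosome 12 had 61, 53 and 36 counts and then 25, 20 and 15 (-1.67, SE 0.42, adjusted p = 0.0409), and its call was lost without DMSO replicate 1 or 2 or ZJU-37 replicate 2 or 3 (adjusted p 0.105 to 0.126). It was also lost with limma-voom (adjusted p = 0.0504) and with limma on log2(FPKM + 1) (log2 fold change -0.70 on that scale, adjusted p = 0.054). The mature oligodendrocyte markers also stood lower with ZJU-37 (4666 to 9761 CPM against 11087 to 22050, with 2 of 8 called lower and 5 with the block). Their part in these decreases was not tested.

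The coding-match genes that fell were Plekha6 and AABR07019383.1. Plekha6, a pleckstrin homology domain protein, had 49.2, 33.6 and 33.7 CPM with DMSO and 21.6, 18.2 and 19.3 CPM with ZJU-37. Its groups did not overlap, although DMSO replicate 1 stood above the other 2 controls, and the log2 fold change was -0.98 (SE 0.17, edgeR adjusted p = 0.0104), which passed without any 1 library. AABR07019383.1, Dct in RefSeq, encodes the melanin enzyme dopachrome tautomerase. It had 15, 21 and 11 counts and then 5, 7 and 3, and from the summed counts it was 3.95-fold higher with DMSO (95% exact interval 2.17 to 7.60, counting error only, adjusted p = 0.0402). It reached 10 counts with DMSO only and was named after its values were seen, and its call was lost without any 1 library other than DMSO replicate 3 (adjusted p 0.0656 to 0.14).

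The promoter of Plekha6 (GRCr8, chr13:47183159-47183458, plus strand) held none of the words searched, which were the CCAAT box and TTTGAA named above and the E2F words TTTCCCGC, TTTCGCGC, TTTGCCGC and TTTGGCGC, on both strands. That of Mettl13 (chr13:77433055-77433354, minus strand) held CCAAT at 2 places, in capitals. These are examples only. CCAAT stood in the promoters of Mettl13, Bves, Exo1, Pcdh10 and Foxd2, which rose or lay beside a gene that rose. It was absent from those of Plekha6 and Dct, which fell. So few promoters allow no reading by direction, and this was not tested. The promoter of Dct, which fell, held TTTGAA, and that of Syne2, which rose, held none of the words.

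Plekha6: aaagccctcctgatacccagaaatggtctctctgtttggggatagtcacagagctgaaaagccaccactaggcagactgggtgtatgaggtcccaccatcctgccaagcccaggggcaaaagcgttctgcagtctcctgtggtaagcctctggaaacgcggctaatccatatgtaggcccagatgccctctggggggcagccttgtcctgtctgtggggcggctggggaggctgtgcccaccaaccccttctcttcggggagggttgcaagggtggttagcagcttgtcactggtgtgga

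Mettl13: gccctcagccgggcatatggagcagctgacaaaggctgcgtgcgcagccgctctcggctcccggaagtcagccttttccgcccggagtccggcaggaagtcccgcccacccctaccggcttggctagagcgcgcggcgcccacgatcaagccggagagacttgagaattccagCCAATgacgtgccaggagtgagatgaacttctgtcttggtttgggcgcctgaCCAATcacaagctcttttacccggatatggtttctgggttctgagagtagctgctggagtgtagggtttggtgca

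Of 13 genes looked up (coding-match genes that changed, the coding partners of divergent genes that changed, and Tug1), 9 had 1 promoter in the RefSeq table. Of these, 6 held CCAAT, 2 held TTTGAA and 0 held an E2F word, where all RefSeq rat promoters held them in 37.5%, 18.3% and 2.14% of cases.

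Position relative to coding genes divided the 280 into 226 intergenic genes, 20 divergent genes (a coding start on the other strand within 2000 bases), 24 that overlapped a protein_coding row on the other strand and 10 on the same strand. Of the 207 intergenic genes tested 17 rose and 7 fell (8.21% and 3.38%, where 9.43% and 5.58% of all tested genes were called), and of the 20 divergent genes 3 rose and 0 fell (edgeR, with 1 lower at an unadjusted p under 0.05 and 0 by DESeq2 or limma). Of these 3, AABR07021823.2 and AABR07049695.2 reached 10 counts with ZJU-37 only, which favoured this direction. The 34 overlapping genes held 0 increases and 3 decreases (8.82%) by edgeR, DESeq2 and limma-voom. The classes were not compared by a test. Of the overlapping genes 2 were higher at an unadjusted p under 0.05 and 1 by limma on FPKM, and with the block 1 rose and 5 fell. At an overlap, the value may hold reads of the coding gene. The overlapping genes that fell were AABR07021536.1, AC144674.2 and AABR07061839.1, in Tnr, Dnm3 and March8. AABR07019209.1, on the other strand of the ubiquitin ligase gene Mycbp2, was the most abundant of those not called, and had 18.5, 27.0 and 23.1 CPM and then 14.3, 25.4 and 23.4 CPM (log2 fold change -0.12, SE 0.24, edgeR adjusted p = 0.789).

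Across neighbours, 137 pairs of a noncoding-class gene and a protein_coding gene overlapped or lay within 5000 bases, and both were tested in 110 pairs of 87 noncoding-class genes. The log2 fold changes had the same sign in 65 of the 110 pairs and a Pearson r of 0.74, or 0.64 without AABR07021536.1. This describes pairs of the same 6 libraries, of which some share reads. In the 7 pairs that overlapped on the same strand r was 0.96, although 2 had the same sign. So r alone does not describe agreement in sign. Over all tested genes 9.43% were called higher and 5.58% lower, and agreement beyond this background was not tested. Of the 12 called genes with a tested neighbour, which made 13 pairs, 10 pairs were called in the same direction and 0 in opposite directions. In 10 other pairs only the coding neighbour was called. In the remaining called pairs, the neighbours were Pcdh10, Abhd10 and NEWGENE_1562416, the last 561 bases from AABR07037410.1 at a log2 fold change of -0.07 (adjusted p = 0.857).

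**Figure D5:**
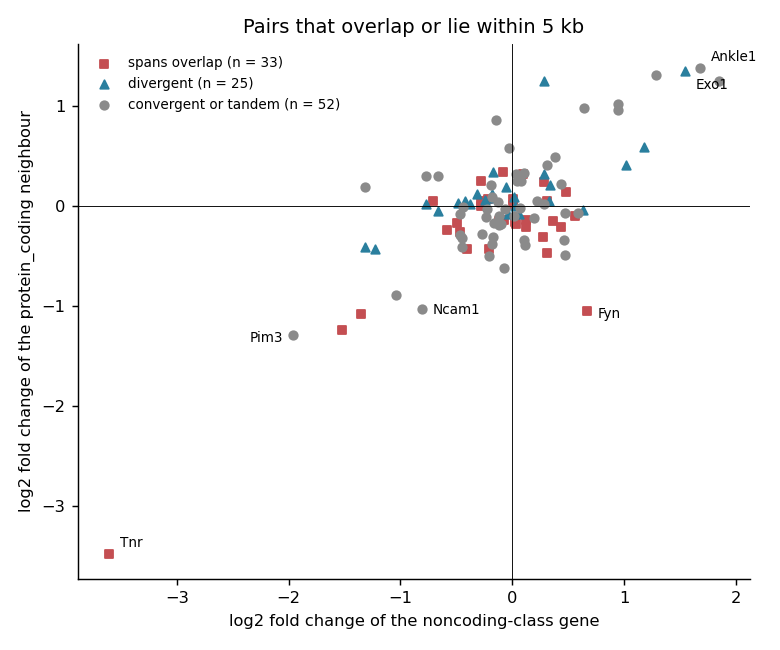
Log2 fold change of the protein_coding neighbour against that of the noncoding-class gene for the 110 pairs that overlap or lie within 5000 bases, with the relation shown by colour and shape. Tnr with AABR07021536.1 lies far from the rest at -3.48 and -3.61, and Fyn is the pair farthest into the opposite-sign field.

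The widest gap between neighbours was in AABR07045350.1, antisense within Fyn on chromosome 20 and chosen after its values were seen. It had 14, 20 and 11 counts with DMSO and 30, 27 and 34 with ZJU-37, without overlap, and a log2 fold change of 0.67 (SE 0.31, edgeR adjusted p = 0.217). Fyn, the Src-family kinase of oligodendrocyte maturation, fell from 1026 ± 99.4 to 497.7 ± 42.2 CPM (SD, n = 3), by 1.04 on the log2 scale (SE 0.10, adjusted p = 0.00102). AC111804.2, 881 bases downstream of the immediate early gene Egr3 and also named after its values were seen, had 8, 5 and 11 counts and then 18, 22 and 36 (log2 fold change 1.29, SE 0.37, adjusted p = 0.0657, with the block 0.0258). Egr3 rose by 1.32 (SE 0.21, adjusted p = 0.0082).

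Among the other abundant genes, Snx3 had 179, 189 and 187 CPM with DMSO and 182, 205 and 200 CPM with ZJU-37 (log2 fold change 0.08, SE 0.07, edgeR adjusted p = 0.511). Top2b had 245 ± 21.6 and 221 ± 25.9 CPM (SD, n = 3) and overlapping groups (-0.15, SE 0.11, adjusted p = 0.439, with the block 0.0478). AABR07002969.1, the most abundant gene without a match, had 37.6 ± 5.82 and 31.7 ± 4.47 CPM (-0.25, SE 0.15, adjusted p = 0.331, with the block 0.0147). AABR07008309.1 had 16.2, 21.2 and 15.9 CPM and then 12.7, 22.8 and 14.3 CPM (-0.10, SE 0.25, adjusted p = 0.835). The unblocked test called none of these 4 genes, and their groups overlapped.

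A small RNA row lay on the same strand within 5 of the genes. They were Trrap, Taf1 and LOC102549726 with small nucleolar RNA families, and Astn1 and LOC688801 with a microRNA. Of the 5, edgeR, DESeq2 and limma called 0. The background was 9.43% of all tested genes higher and 5.58% lower, and with the block 16.2% and 15.9%. Counts among 5 genes allow no reading. At an unadjusted p under 0.05 in edgeR 2 were higher, and 2 were higher with the block, namely Trrap (log2 fold change 0.16, edgeR adjusted p = 0.138, with the block 0.0284) and Taf1 (0.21, adjusted p = 0.065, with the block 0.0228), which encode a scaffold of histone acetyltransferase complexes and a subunit of TFIID. Astn1, a neuronal adhesion protein gene, holds Mir488 and had 134 ± 17.8 and 145 ± 13.6 CPM (SD, n = 3; log2 fold change 0.11, SE 0.11, adjusted p = 0.602). The mature microRNAs from RefSeq are given with the seed, bases 2 to 8, in capitals. The poly-A libraries measured the host gene and not these microRNAs.

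rno-miR-488-5p: cCCAGAUAauggcacucucaa

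rno-miR-488-3p: uUGAAAGGcuguuucuugguc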

How the data were processed

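Poly-A RNA of 6 OPC libraries, 3 with DMSO and 3 with ZJU-37, was analysed from 1 deposited table. Per the labels, the authors used HISAT2 2.0.5, StringTie 1.3.3b and featureCounts 1.5.0, and the genome build is not given in the sources used here. The deposited counts are raw and whole. The deposited FPKM values were made by the authors and served only for levels and as an alternative. The authors' columns of fold changes and p-values were not used. From the counts, all 14670 genes that passed filterByExpr were normalized by TMM (factors 0.981 to 1.04) and tested with edgeR 4.0.16 in R 4.3.3 (glmQLFit with robust estimation, glmQLFTest, two-sided), with Benjamini-Hochberg adjustment over all of them and without a batch term, since the labels name none. Standard errors came from the fold change and its F statistic.

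Both groups carry replicate numbers 1 to 3 in the labels. After the group means were subtracted, libraries with the same number correlated across genes at r = 0.39, 0.31 and 0.33 and other pairs at -0.27 to -0.01 (genes are not independent replicates). The replicate number was therefore also used as a block. Libraries of a group differed by a chi-square of at least 11.3 per degree of freedom, so none was treated as a duplicate. On simulated counts of 14521 genes for this comparison, edgeR recovered 80.4% of the genes changed by 1.5 and 90.3% of those changed by 2 on the log2 scale, with 8.60% false calls. The false share was above the adjusted p limit of 0.05. The 200 changed genes were drawn from genes of all levels, so these rates do not describe low genes alone.

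Genes were named when on a list, among the 10 largest increases or 10 largest decreases that were called, averaged 1 CPM or more and had groups apart, among the 10 most abundant, or as called hosts of small RNAs, with their coding partners. Some named genes and neighbours are not reported here. Other genes are said to be named after their values were seen. The members and lists were chosen with earlier results of these data known. Alternatives were DESeq2 1.42.0, limma 3.58.1 (voom, log2(FPKM + 1) and log2(FPKM + 0.1)), other normalizations and filters, the block and leaving out each library. Subsets without coding-match genes and without genes that reached 10 counts in 1 group only were added after seeing the data. Gene identities, promoters and microRNAs came from RefSeq (GRCr8).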

Additional observations from a re-analysis of the deposited data

How the results depend on the processing

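The 20 increases and 10 decreases became 17 to 23 and 8 to 11 under other normalizations, filters, DESeq2, limma-voom and limma on FPKM. With the replicate block they became 32 and 26, and the 20 and 10 calls were all among these. A further limit of 1 on the size of the log2 fold change left 13 increases, and dropping the coding-match genes also left 13. Leaving out 1 library gave 12 (without DMSO replicate 3) to 20 increases and 4 (without DMSO replicate 1 or ZJU-37 replicate 2) to 9 decreases. Of the 20 increases 9, and of the 10 decreases 3, passed without each library in turn. Such fits have fewer samples. Of the 18 reported named genes with a call, 7 had an adjusted p under 0.05 in every fit made of single genes, to which the fold limit was not applied. The call was lost in 45 of their 269 fits, and the direction turned in 0.

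The difference in the share of all counts was 0.0090 percentage points and turned to -0.0098 as a share of summed FPKM and to -0.0023 without ZJU-37 replicate 1, with a range of -0.0023 to 0.0175 over the left-out libraries. Directions also turned for 3 genes without a call. Over the left-out libraries, the log2 fold change of AABR07008309.1 ran from -0.37 to 0.077 (above 0 without DMSO replicate 2, ZJU-37 replicate 1 or ZJU-37 replicate 3), of AABR07019209.1 from -0.25 to 0.10 (DMSO replicate 2 or ZJU-37 replicate 1) and of Tug1 from -0.075 to 0.012 (ZJU-37 replicate 2). The cause was not tested. Depth limits the lowest genes, since 3 counts are up to 0.215 CPM and 19 of the 280 were too low to test.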

Other observations

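Of the 19 genes too low to test, AABR07007717.3 on chromosome 2 had the most lopsided counts, with 1, 1 and 1 in the DMSO libraries and 12, 12 and 13 in the ZJU-37 libraries. From the summed counts, ZJU-37 exceeded DMSO by a ratio of 9.78 (95% exact interval 3.098 to 49.6, counting error only). AABR07041724.2 had 7, 3 and 6 counts with DMSO and 25, 11 and 19 with ZJU-37 (ratio 2.73, interval 1.54 to 5.10). Both reached 10 counts with ZJU-37 only, which favours such a ratio.

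AABR07044962.1 on chromosome 20, Ranbp2 in RefSeq, varied by library and not by group. It had 4, 10 and 176 counts in DMSO replicates 1, 2 and 3 and 159, 5 and 5 in the ZJU-37 replicates, and its log2 fold change had the widest standard error of the 261 tested genes (-0.23, SE 1.64, edgeR adjusted p = 0.947).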
